A study of Mus musculus with 8 samples.

Results

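The cytosolic ribosomal protein genes were followed in femoral bone shafts of male mice that lack Girk3 (KO) and of wild-type males (WT). They were taken as the protein-coding genes of GENCODE M21 whose symbol names a subunit of the cytosolic ribosome, the paralogs Rpl3l, Rpl7l1, Rpl10l, Rpl22l1, Rpl36al, Rpl39l and Rps27l included and pseudogenes left out. The rule found 84 genes among 49315 rows of the count table, 52 of the large subunit and 32 of the small one. Of these, 83 had enough counts to be tested, and Rpl10l, the copy of Rpl10 known from testis, had no count in any library. The 84 genes lie on 19 chromosomes.

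The KO group held 4 mice homozygous for the Girk3 deletion, and the WT group held 4 mice with the gene intact. Girk3, gene symbol Kcnj9, encodes a potassium channel subunit opened by G protein-coupled receptors. All 8 mice were males aged 24 weeks and labelled C57BL6, and the labels name neither the part of the gene that was removed nor whether the WT mice were littermates. Whole diaphyseal bone was used after the ends were cut off and the marrow was flushed out, so the RNA is that of a mixed tissue, in which fewer cells of a type and less RNA per cell cannot be told apart.

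Each cytosolic ribosome joins a large subunit, which forms the peptide bonds, to a small subunit, which reads the messenger RNA. Their proteins are needed in nearly equal numbers, and mammalian ribosomal protein messages share a pyrimidine-rich start (the TOP motif) through which mTOR signalling adjusts their translation. Promoters of these genes usually lack a TATA box and often hold sites for ETS family factors such as GABP. In bone, the osteoblast is a secretory cell that makes large amounts of type I collagen, and mutations of single ribosomal proteins are known to cause skeletal and red-cell disorders.

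Promoter windows of RefSeq (GRCm38.p6), running from 250 bases before to 50 bases after each start, were matched to 64 of the 84 genes. The letters CTTTCC, a short pyrimidine tract, occurred on either strand in 34 of these 64 genes, or 53.1%, against 29.3% of 27025 genes with such a window. CCGGAA, the core of ETS sites, occurred on either strand in 35 of 64, or 54.7%, against 16.7% of all genes. AAGATGG, the core of YY1 sites, was found in 10 of 64, or 15.6%, against 7.28%. TATAAA was found in 7 of 64, or 10.9%, against 15.7%. Some letters can belong to both of the first motifs, since CTTTCCGG holds CTTTCC and, read on the other strand, CCGGAA. A match says only that the letters are there.

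The sequences below run from 60 bases before to 20 bases after the RefSeq start, 5′ to 3′ on the gene's own strand, with CTTTCC or CCGGAA on either strand in capitals. Rpl37a, Rpl26, Rpl22l1 and Rps13 are shown because they stood among the members with the smallest p-values, Rpl13a because its level was not higher in KO bone, and Rps27 beside its paralog Rps27l. Rpl3l is shown as the muscle-type copy of Rpl3.
Rpl37a, chr1:72711200-72711279, plus strand: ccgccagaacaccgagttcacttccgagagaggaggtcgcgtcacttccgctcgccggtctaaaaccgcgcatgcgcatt
Rpl26, chr11:68901506-68901585, plus strand: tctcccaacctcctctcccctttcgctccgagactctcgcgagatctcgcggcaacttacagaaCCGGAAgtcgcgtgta
Rpl22l1, chr3:28805448-28805527, plus strand: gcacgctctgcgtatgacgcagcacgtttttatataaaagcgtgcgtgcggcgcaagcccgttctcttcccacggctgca
Rps13, chr7:116334171-116334250, minus strand: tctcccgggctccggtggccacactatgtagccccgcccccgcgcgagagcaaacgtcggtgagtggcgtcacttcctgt
Rps27, chr3:90213629-90213708, minus strand: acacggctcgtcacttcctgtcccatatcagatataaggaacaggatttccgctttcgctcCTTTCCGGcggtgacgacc
Rps27l, chr9:66946026-66946105, plus strand: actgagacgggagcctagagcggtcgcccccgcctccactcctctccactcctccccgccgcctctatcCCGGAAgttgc
Rpl13a, chr7:45128726-45128805, minus strand: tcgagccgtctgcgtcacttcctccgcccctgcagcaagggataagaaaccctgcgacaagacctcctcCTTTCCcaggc
Rpl3l, chr17:24727766-24727845, plus strand: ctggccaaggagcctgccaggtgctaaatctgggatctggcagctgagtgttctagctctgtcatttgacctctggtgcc
The Rpl22l1 window holds the letters TATAAA, which the other printed windows do not. None of the capitals stand in the windows of Rpl37a, Rpl22l1, Rps13 and Rpl3l.

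Libraries held 30937465 to 32348592 counts in KO bone and 30087749 to 36553713 counts in WT bone. Kcnj9 itself had 0, 8, 4 and 7 counts in the KO libraries and 7, 6, 6 and 23 counts in the WT libraries, so it was near the limit of detection in both groups and could not check the labels. KO replicate 4 and WT replicate 4 stood at opposite ends of the first principal component, which held 33.5% of the variance. The 26 skeletal muscle markers moved with them, with a summed level of 145876 to 239456 CPM (counts scaled to a common library size) in KO bone and 91629 to 170379 CPM in WT bone, KO replicate 4 being the highest library and WT replicate 4 the lowest. The 14 neutrophil markers summed to 890 to 8351 CPM in KO bone and 1782 to 6221 CPM in WT bone. The osteoblast markers were present in all libraries, with summed levels of 13347 to 23552 CPM in KO bone and 12707 to 26498 CPM in WT bone.

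Together the 84 genes made up 3.82, 2.79, 2.80 and 2.35% of all counts in KO replicates 1 to 4, against 1.88, 2.22, 2.24 and 3.23% in WT replicates 1 to 4. The mean share was 2.94% ± 0.621 in KO bone and 2.39% ± 0.581 in WT bone (SD, n = 4 each). The ranges of the shares overlapped, since WT replicate 4 stood above 3 of the KO libraries. Levels per length differed widely among the members, with a median of 188 CPM per kilobase of exon in KO bone and 134 in WT bone over the 83 genes.

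In KO bone, 81 of the 83 tested genes had a higher fitted level than in WT bone, but none of them passed the test at an adjusted p of 0.05. Among all 17450 genes tested, 48.6% were higher. The median log2 fold change (KO over WT) over the 83 genes was 0.42, against -0.01 over all genes, and single values reached 0.80. An unadjusted p below 0.05 was found for 46 of the 83 genes, or 55.4%, all of them higher in KO bone, against a background of 9.59% of all genes higher and 8.59% lower at that threshold. With edgeR's quasi-likelihood test and Benjamini-Hochberg adjustment over all genes, 0 members were called, against a background of 0.0115% of all genes in either direction, and the lowest adjusted p was 0.0914. At an adjusted p of 0.10 the test called 2 of the 83, Rpl22l1 and Rps20, against 2.83% of all genes. The fold changes had an SD of 0.18 on the log2 scale over the members and 0.39 over all genes. With a stricter low-count filter the SD over all genes was 0.34. Lists of other translation genes had SDs from 0.18 (assembly factors) to 0.27 (elongation genes), so a narrow spread was not particular to the members.

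**Figure D1:**
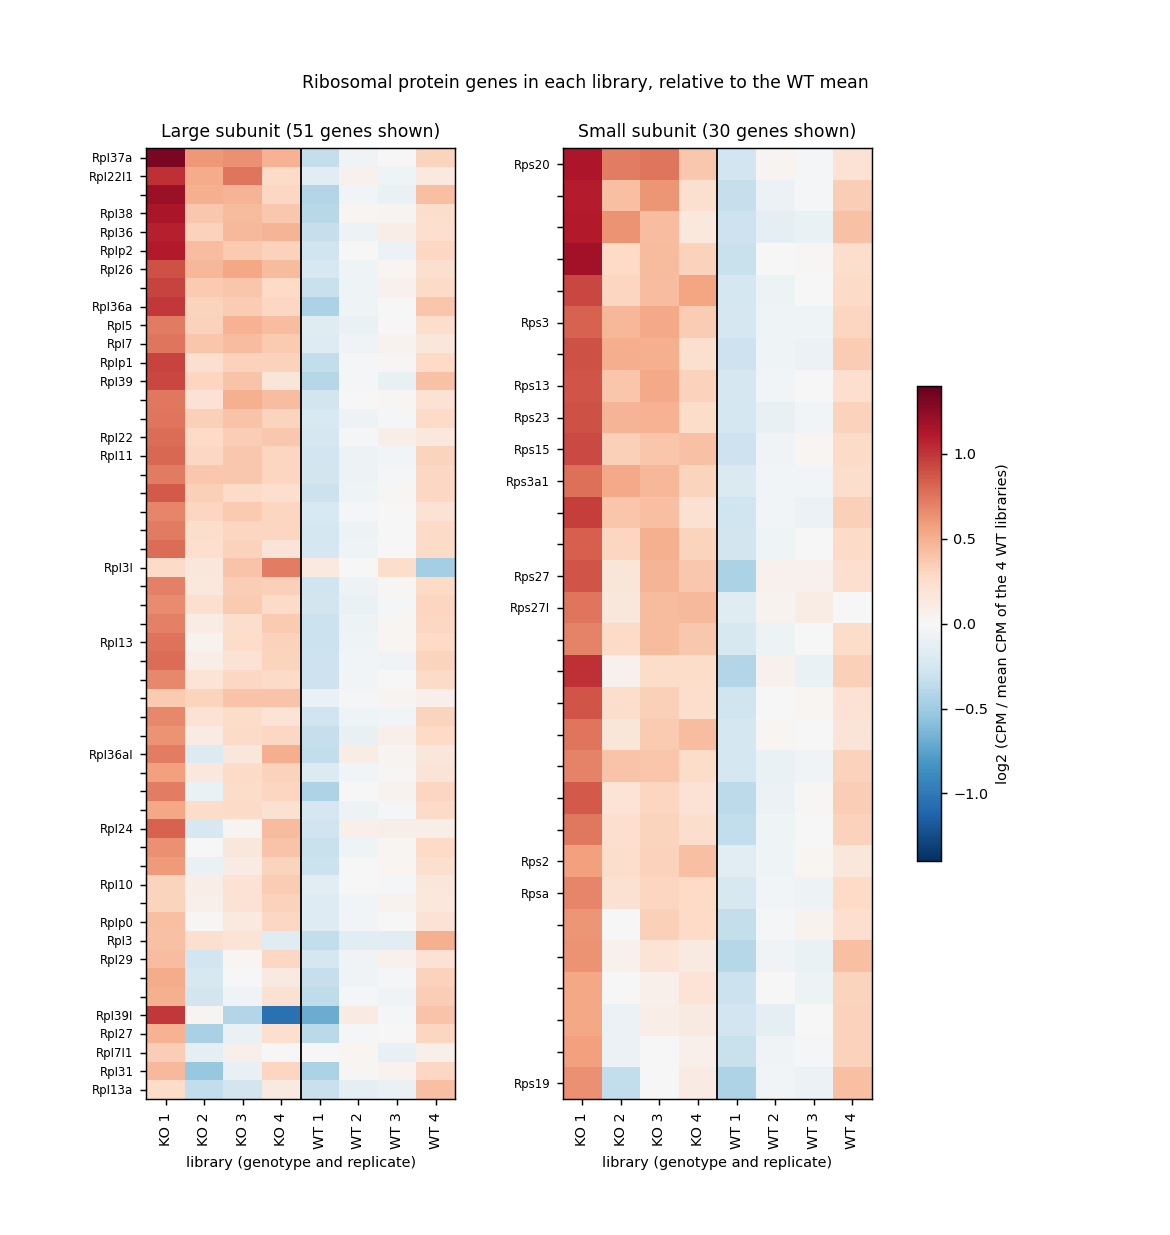
Level of 81 of the 83 tested ribosomal protein genes (rows, ordered by fold change within each subunit, with the genes of the text labelled) in each library (columns, KO then WT), as the log2 ratio to the mean CPM of the 4 WT libraries. KO replicate 1 is above the WT mean in every row shown, and WT replicate 4 in nearly all of them.

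Levels of the members varied together between libraries. Relative to the WT mean, their median log2 level was 0.74 in KO replicate 1, 0.23 in KO replicate 2, 0.33 in KO replicate 3 and 0.30 in KO replicate 4, against -0.28 to 0.27 in the WT libraries. In the KO libraries 83, 66, 75 and 80 of the 83 genes were above the WT mean, against 2, 16, 41 and 81 genes in the WT libraries. KO replicate 1 was the highest library for 76 of the 83 genes, and WT replicate 1 was the lowest for 75. The median level of WT replicate 4 thus lay within those of the KO group.

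All KO libraries were above all WT libraries for 27 of the 83 genes, or 32.5%, against a background of 7.33% of all genes tested. No member had all KO libraries below all WT libraries, against 5.78% of all genes. When replicate 4 of both groups was left out, the groups did not overlap for 62 of the 83 genes, or 74.7%, against 15.5% of all genes. WT replicate 4 had the highest median level of the members among the WT libraries, so leaving it out lowers their WT level by construction. This setting, too, was chosen with earlier results of these data known. In that fit the median log2 fold change was 0.54, and 13 members were called higher in KO bone, against a background of 1.61% of genes called higher. In the same fit the median of the 14 neutrophil markers was 1.21, against 0.42 with all libraries, and that of 12 immediate early genes was 0.58, against 0.26, with 4 immediate early genes called. Their part in the members' values was not tested. When replicate 1 of both groups was left out instead, a setting added after the data were seen, the median was 0.19. Of the 83 genes, 69 were higher and 0 were called, against a background of 0.00571%. An unadjusted edgeR p below 0.05 and a higher level were then found for only 8 of the 83, or 9.64%. Among all 17516 genes of that fit, 1117 met the same threshold. Overlap between groups was not computed for this setting.

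**Figure D2:**
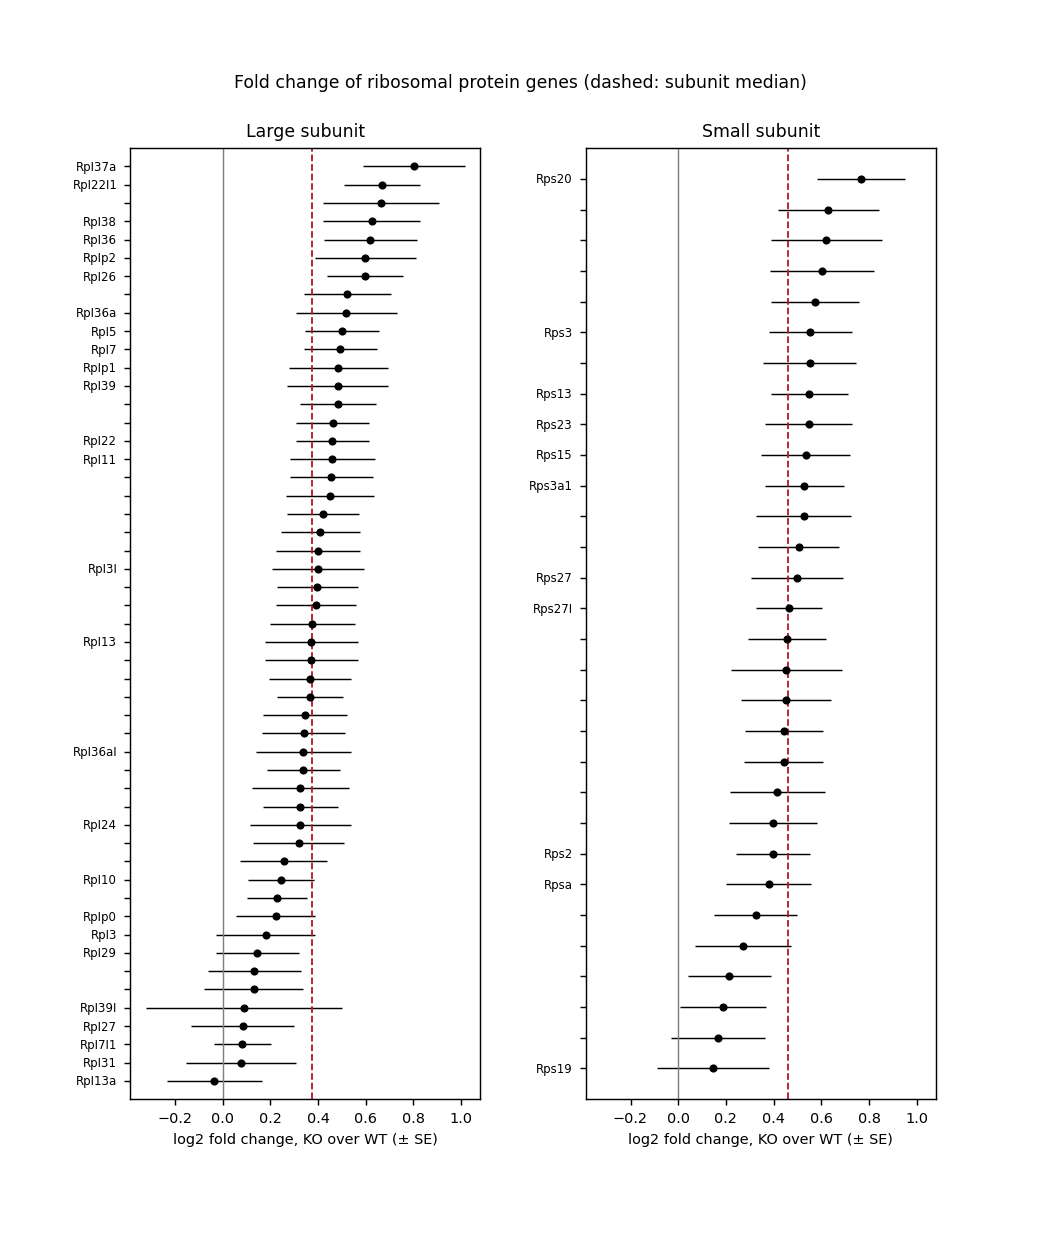
Log2 fold change (KO over WT) of 81 of the 83 tested ribosomal protein genes from the edgeR fit, by subunit, with bars for 1 standard error and the genes of the text labelled. Values reach 0.80, and the dashed lines are the medians over all tested genes, 0.38 for the large subunit and 0.46 for the small one.

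Both subunits showed this pattern. Of the 51 large subunit genes tested, 50 were higher in KO bone, with a median log2 fold change of 0.38, and 25 had an unadjusted p below 0.05. Of the 32 small subunit genes, 31 were higher, with a median of 0.46, and 21 had an unadjusted p below 0.05. The background at that threshold was 9.59% of all genes higher. The large subunit median was thus 0.08 below that of the small subunit on the log2 scale. Counts of the large subunit stood to those of the small one as 1.30, 1.30, 1.32 and 1.42 to 1 in KO replicates 1 to 4, against 1.42, 1.41, 1.43 and 1.37 to 1 in WT replicates 1 to 4. KO replicates 1 to 3 were below all WT libraries in this ratio, and KO replicate 4 was within their range.

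Among the large subunit genes, Rpl22l1, Rpl26, Rpl37a, Rpl5 and Rpl7 had the smallest p-values. Rpl22l1, the paralog of the RNA-binding protein Rpl22 (chr3:28805436-28807424, plus strand, GRCm38), had 117, 82.6, 97.3 and 69.6 CPM in KO bone, against 52.0, 60.1, 55.3 and 63.4 CPM in WT bone. All KO libraries were above all WT libraries. This gave a log2 fold change of 0.67 (SE 0.16, adjusted p = 0.0914 with edgeR's quasi-likelihood test). Rpl26, a protein near the exit of the peptide tunnel, had 389, 289, 304 and 285 CPM in KO bone, against 180, 201, 213 and 244 CPM in WT bone. The groups did not overlap, and the log2 fold change was 0.60 (SE 0.16, adjusted p = 0.105).

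Rpl37a had the largest fitted fold change of the 83 genes. It encodes a small zinc-binding protein of the large subunit and lies at chr1:72711290-72713813, plus strand. Its levels were 436, 268, 272 and 246 CPM in KO bone, against 139, 169, 174 and 218 CPM in WT bone. KO replicate 1 was far above the other KO libraries, and all KO libraries were above WT. The log2 fold change was 0.80 (SE 0.21, adjusted p = 0.106), and 0.58 without KO replicate 1. The 3 members on chromosome 1, the chromosome of Kcnj9, are Rpl37a, Rpl31 and Rpl7, and the nearest of them, Rpl37a, lies 99.6 Mb from it.

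Rpl5, which with Rpl11 and the 5S ribosomal RNA can bind the p53 regulator Mdm2, had 510, 385, 431 and 413 CPM in KO bone, against 273, 287, 305 and 364 CPM in WT bone. Rpl7 had 603, 469, 482 and 462 CPM in KO bone, against 315, 346, 370 and 400 CPM in WT bone. For both genes the KO libraries were all above the WT libraries. The log2 fold changes were 0.50 for Rpl5 (adjusted p = 0.140) and 0.49 for Rpl7 (adjusted p = 0.142), and neither passed edgeR's test.

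Among the small subunit genes, Rps20, Rps13, Rps27l and Rps3 were among the 5 with the smallest p-values. Rps20, a protein of the small subunit head (chr4:3831334-3835665, minus strand), had 547, 410, 420 and 325 CPM in KO bone, against 208, 257, 246 and 289 CPM in WT bone. The highest WT library was below the lowest KO library. The log2 fold change was 0.77 (SE 0.18, adjusted p = 0.0914 with edgeR).

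Rps13 had 297, 212, 234 and 203 CPM in KO bone, against 138, 157, 162 and 190 CPM in WT bone, with a log2 fold change of 0.55 (adjusted p = 0.129 with edgeR) and no overlap. Rps3, which forms part of the messenger RNA entry channel and is also known in DNA repair, had 760, 589, 618 and 548 CPM in KO bone, against 364, 411, 412 and 526 CPM in WT bone. Its log2 fold change was 0.55 (adjusted p = 0.146 with edgeR), and its groups did not overlap either.

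The 3 members of each subunit with the highest level per length in WT bone had log2 fold changes from 0.22 to 0.62. The largest over all members was 0.80, for Rpl37a. Rplp1, an acidic protein of the stalk that recruits translation factors, had 1391 CPM per kilobase of exon in KO bone and 994 in WT bone. In KO bone its CPM was 953, 580, 622 and 621, against 391, 488, 502 and 603 in WT bone, and the groups overlapped. Rplp2, its partner in the stalk, had 603, 376, 358 and 349 CPM in KO bone, against 230, 280, 264 and 341 CPM in WT bone, without overlap. The log2 fold changes were 0.49 for Rplp1 and 0.60 for Rplp2, and 0.22 for Rplp0, the protein that anchors the stalk and is often used as a reference gene.

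Rplp0 had 1067, 802, 874 and 970 CPM in KO bone, against 703, 773, 792 and 916 CPM in WT bone, and its groups overlapped. After Rplp1, the large subunit genes with the highest level per length in WT bone were Rplp0, with 560 CPM per kilobase in KO bone and 480 in WT bone, and Rpl36, with 595 in KO bone and 388 in WT bone. Their order was thus the other way round in KO bone. In the small subunit they were Rps3a1, Rps15 and Rps2, with 834, 762 and 517 CPM per kilobase in KO bone, against 578, 526 and 393 in WT bone. The log2 fold changes of Rpl36, Rps3a1, Rps15 and Rps2 were 0.62, 0.53, 0.53 and 0.40, with no overlap between groups for any of the 4. Rpsa, the small subunit protein also known as the laminin receptor, had 1006, 728, 771 and 759 CPM in KO bone, against 537, 610, 599 and 764 CPM in WT bone, with a log2 fold change of 0.38.

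Rpl13a did not share the higher level in KO bone. This gene, also known for a role in silencing inflammatory messages, had 256, 170, 180 and 235 CPM in KO bone, against 173, 198, 202 and 288 CPM in WT bone (log2 fold change -0.03, SE 0.20). The groups overlapped, with WT replicate 4 the highest library and KO replicate 2 the lowest.

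KO replicate 2 was also the lowest library for Rpl27, Rpl29, Rpl31 and Rpl7l1, which were picked out after their values were seen. Rpl31 had 375, 189, 254 and 337 CPM in KO bone, against 201, 276, 284 and 334 CPM in WT bone. Rpl27 had 268, 140, 178 and 224 CPM in KO bone, against 147, 189, 192 and 235 CPM in WT bone. Both had a log2 fold change of 0.08, and their KO levels spread more widely than those of WT bone.

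The 8 members with a known skeletal or red-cell phenotype were read as a list, and all of them had a higher level in KO bone, as did 81 of the 83 members. Their median log2 fold change was 0.35, 3 had an unadjusted p below 0.05 and a higher level, against a background of 9.59% of all genes, and 0 were called, against 0.0115%. Rpl38, whose loss in mouse alters the pattern of the axial skeleton, had 197, 115, 121 and 116 CPM in KO bone, against 68.2, 90.6, 91.5 and 106 CPM in WT bone. Its KO libraries were all above WT, with a log2 fold change of 0.62 (adjusted p = 0.159 with edgeR). Rpl29, whose loss in mouse gives short stature and fragile bone, had 247, 152, 187 and 223 CPM in KO bone, against 154, 177, 191 and 210 CPM in WT bone, with overlapping groups and a log2 fold change of 0.14.

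Rpl24, mutated in the belly spot and tail mouse, had 137, 66.5, 79.6 and 106 CPM in KO bone, against 63.8, 81.3, 82.5 and 83.1 CPM in WT bone. Rps19, the gene most often mutated in human Diamond-Blackfan anaemia, had 333, 168, 211 and 230 CPM in KO bone, against 158, 208, 201 and 285 CPM in WT bone. Both overlapped between groups, with log2 fold changes of 0.33 for Rpl24 and 0.15 for Rps19. Rpl11, also a Diamond-Blackfan gene, had a log2 fold change of 0.46, while Rpl13 and Rpl10, both tied to human skeletal disorders, had 0.37 and 0.24. The groups of these 3 genes overlapped as well.

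Paralogs were compared with their canonical genes through the ratio of counts within each library, for the 6 pairs in which both genes were tested. Rpl3l, a copy of Rpl3 known from skeletal muscle and heart, was abundant in these samples, with 275 CPM per kilobase of exon in KO bone and 208 in WT bone, while Rpl3 had 102 in KO bone and 90.04 in WT bone. Rpl3l had 414, 382, 450 and 561 CPM in KO bone, against 378, 341, 406 and 246 CPM in WT bone. Rpl3 had 381, 334, 327 and 255 CPM in KO bone, against 226, 255, 258 and 404 CPM in WT bone. In replicate 4 of each group the 2 genes stood on opposite sides of their group mates, with Rpl3l high and Rpl3 low in KO bone and the reverse in WT bone.

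There were 109, 115, 138 and 221 Rpl3l counts for every 100 Rpl3 counts in KO bone, against 167, 133, 157 and 60.8 in WT bone. The log2 ratio was 0.21 higher in KO bone (two-sided exact permutation test, p = 0.686, adjusted over the 6 pairs 0.800). Without both replicates 4 the difference was -0.34, the opposite direction. Across the 8 libraries the log2 ratio was higher where the log2 summed level was higher of the 26 skeletal muscle markers, a list that does not hold Rpl3l, with Pearson's r = 0.955 (exact permutation p = 0.00179) and Spearman's rho = 0.810 (exact permutation p = 0.0218). This was the only such relation computed. Without KO replicate 4 and WT replicate 4, r was 0.632 over 6 libraries (exact permutation p = 0.193), so the relation rests on those libraries. Each group has too few libraries for a value of its own.

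**Figure D3:**
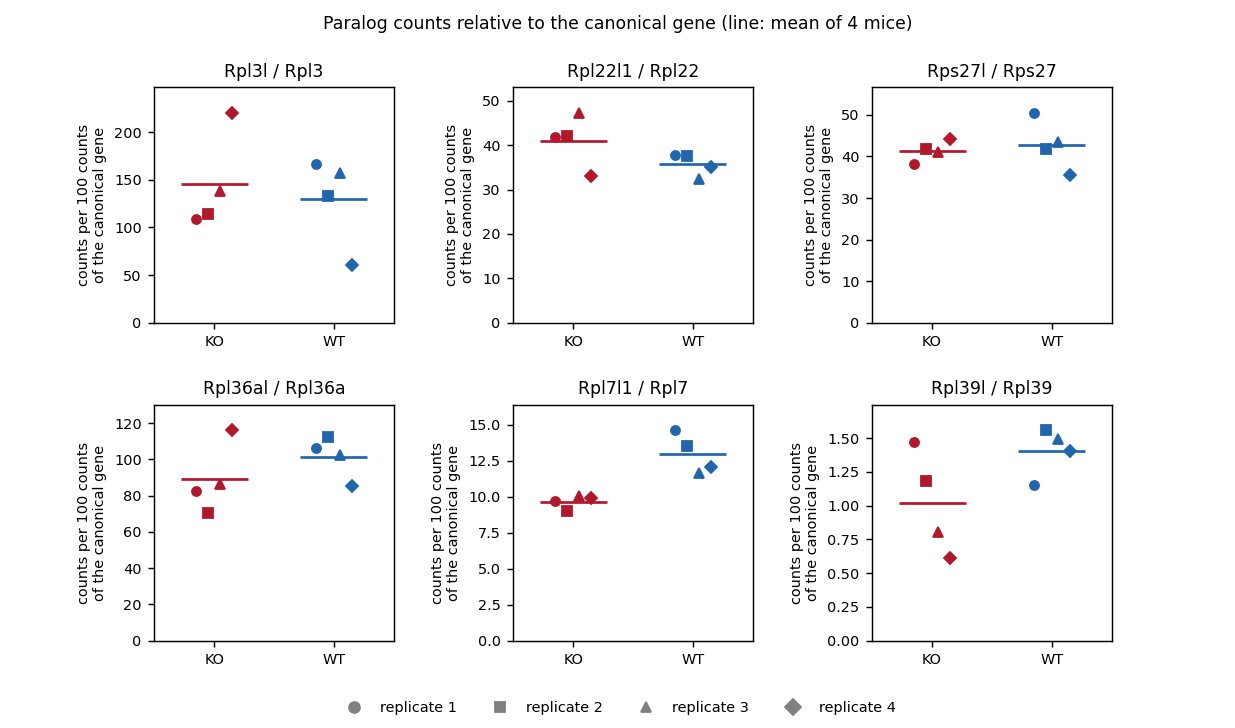
Counts of each paralog per 100 counts of its canonical gene in every library, KO left of WT, with the mean of 4 mice as a line and the replicate number as the marker. Rpl7l1 lies between 9.02 and 10.04 per 100 Rpl7 in KO bone and between 11.6 and 14.6 in WT bone, without overlap, and the other 5 pairs overlap.

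Rpl7l1 was the only paralog of the 6 whose ratio did not overlap between groups. Rpl7l1, related to Rpl7 and known from ribosome assembly (chr17:46773907-46782672, minus strand), had 58.5, 42.3, 48.5 and 45.7 CPM in KO bone, against 46.0, 46.8, 43.0 and 48.3 CPM in WT bone. Its own level thus hardly differed (log2 fold change 0.08, SE 0.12), while that of Rpl7 was higher in every KO library. There were 9.70, 9.02, 10.04 and 9.90 Rpl7l1 counts per 100 Rpl7 counts in KO bone, against 14.6, 13.5, 11.6 and 12.05 in WT bone. The log2 ratio differed by -0.42 (two-sided exact permutation test, p = 0.0286, the smallest that 4 against 4 can give), but it did not pass after adjustment over the 6 pairs (p = 0.171).

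For Rpl22l1 there were 41.8, 41.9, 47.3 and 32.9 counts per 100 Rpl22 counts in KO bone, against 37.7, 37.6, 32.3 and 35.1 in WT bone. Rpl22 had 280, 197, 206 and 211 CPM in KO bone, against 138, 160, 171 and 181 CPM in WT bone, so both genes of this pair were higher in every KO library than in any WT library. Their log2 ratio differed by 0.19 (exact permutation p = 0.171, adjusted 0.343). Rps27l, a p53 target, had 109, 72.8, 88.3 and 89.0 CPM in KO bone, against 57.8, 67.6, 70.3 and 65.1 CPM in WT bone, with a log2 fold change of 0.46 (adjusted p = 0.130 with edgeR). Rps27 had a log2 fold change of 0.50, and the log2 ratio of the pair differed by -0.04 (exact permutation p = 0.800).

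Rpl39l, known from testis, had 3.40, 1.76, 1.29 and 0.834 CPM in KO bone, against 1.06, 1.86, 1.69 and 2.25 CPM in WT bone, and was the member with the lowest counts of the 83. Per 100 Rpl39 counts there were 1.47, 1.18, 0.806 and 0.612 in KO bone, against 1.16, 1.56, 1.496 and 1.41 in WT bone. The log2 ratio differed by -0.53 (exact permutation p = 0.143, adjusted 0.343). Rpl36al, a copy of Rpl36a, had 82.7, 70.6, 86.5 and 116 counts per 100 Rpl36a counts in KO bone, against 106, 112, 102 and 85.2 in WT bone, a log2 difference of -0.21 (exact permutation p = 0.343, adjusted 0.514). Both pairs overlapped between groups.

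Ribosomal protein messages are short, and genes with short exons as a whole were higher in KO bone. Exon length here is that of all annotated exons of a gene merged, which can be longer than its message. A dependence on message length itself was not tested. The median exon length was 1770 bases over the 83 members and 3856 bases over all genes tested. Over all genes tested, the median log2 fold change was 0.21 in the decile with the shortest exons and -0.19 in the one with the longest. The 16 members in that shortest decile had a median of 0.47, and the 29 members in the next decile had 0.40, where the other genes there had 0.19. After each library's dependence on merged exon length had been taken out by a loess offset, the median of the members was 0.34, against 0.03 over all genes. In that fit 42 of the 83 had an unadjusted p below 0.05 and a higher level in KO bone, against a background of 9.77%, and 0 were called. Over the members alone, fold change and exon length had a Spearman's rho of -0.10, given as a description over genes of the same libraries.

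**Figure D4:**
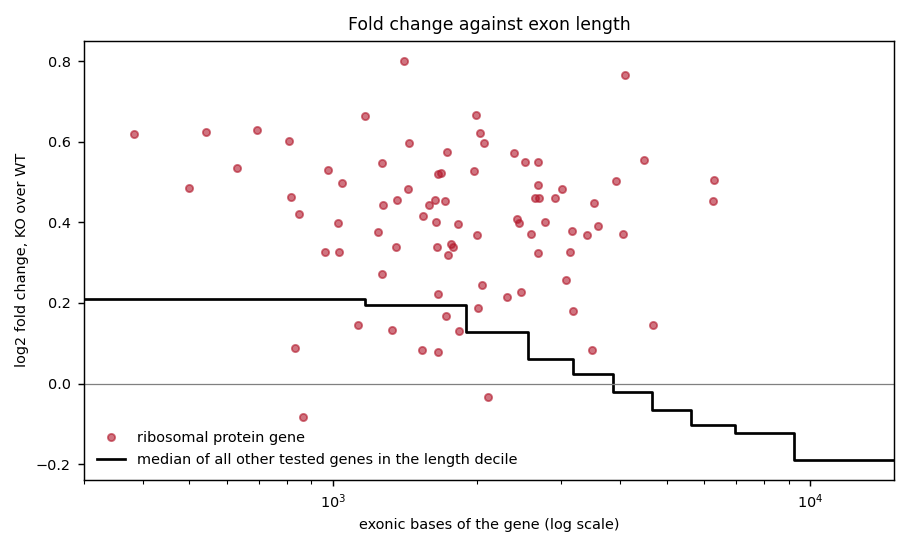
Log2 fold change (KO over WT) of each tested ribosomal protein gene (points) against its exonic bases (log axis), with the median of the other tested genes in each length decile as a stepped line. The line has 0.21 in the shortest decile and -0.19 in the longest, where the axis stops short of the longest genes, and most points lie above it.

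Muscle, marrow and mitochondrial values differed between libraries as well. With the mean log2 level of the muscle markers as a covariate, the members' median log2 fold change was 0.55, and 52 of 83 were called higher in KO bone, or 62.7%, against a background of 4.67% of genes called higher. With the mean of the erythroid, neutrophil and B cell markers as the covariate, 37 members were called, against a background of 4.44%. This covariate pools lists whose median log2 fold changes, given below, differed in sign. It is therefore not an adjustment for neutrophils or any other single cell type. With 1 surrogate variable 27 members were called, against 4.04%. All 14 neutrophil markers had a higher fitted level in KO bone, with a median log2 fold change of 0.42 and none with an unadjusted p below 0.05. Without both replicates 4 the neutrophil median was 1.21. Of the 26 muscle markers, 20 were higher, with a median of 0.32, which was -0.07 without both replicates 4. Of 13 erythroid markers 10 were lower, with a median of -0.41, of 14 B cell markers 10 were lower, with a median of -0.21, and of 12 proliferation genes 11 were lower, with a median of -0.38. Without both replicates 4 these medians were 0.02, -0.02 and 0.13. Of 14 osteoblast markers 10 were lower, with a median of -0.20, and of 12 osteocyte markers 8 were lower, with a median of -0.29. Without both replicates 4 the osteoblast median was -0.08 and the osteocyte median was 0.08. The part of the bone cell markers in the result was not tested. All 9 adipocyte markers were higher, with a summed level of 349 to 875 CPM in KO bone and 286 to 386 CPM in WT bone. The part of the adipocyte markers in the result was not tested. Counts of mitochondrial genes took 5.84 to 11.6% of the KO libraries and 8.46 to 11.9% of the WT libraries, and their part in the result was not tested.

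Other genes of translation were read from lists of the same kind, and edgeR over all 8 libraries, with genotype as the only term, called 0 genes of any of them. DESeq2 called 6 of the 36 initiation genes, 3 of the 12 elongation genes, 5 of the 19 polymerase genes, 1 of the 41 assembly genes and 1 of the 21 signalling genes higher in KO bone, against its background of 3.9%. Without both replicates 4, edgeR called 1 initiation, 2 elongation and 1 assembly gene higher, against a background of 1.61% of genes called higher. It called 1 signalling gene lower, where 176 of all 17491 genes were called lower. Of 36 initiation factors, 32 were higher in KO bone, with a median log2 fold change of 0.18. An unadjusted edgeR p below 0.05 and a higher level were found for 12 of them, against a background of 9.59% of all genes. The 3 with the smallest p were Eif3f, Eif3m and Eif6. Eif3f, a subunit of the factor that loads the small subunit, had 202, 176, 204 and 197 CPM in KO bone, against 136, 128, 132 and 127 CPM in WT bone. Its groups lay far apart, with a log2 fold change of 0.57 (SE 0.11, adjusted p = 0.0728 with edgeR). Eif3m, another subunit, had a log2 fold change of 0.46 (adjusted p = 0.0790), and Eif6, which keeps the large subunit from joining too early, had 0.43 (adjusted p = 0.0969).

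Of 12 elongation genes, 9 were higher in KO bone, with a median log2 fold change of 0.15. Eef1b2, Eef1d and Eef1g, which together recharge the elongation factor eEF1A with GTP, had the smallest p-values. Eef1b2 had 404, 332, 317 and 268.9 CPM in KO bone, against 177, 197, 199 and 235 CPM in WT bone. That is a log2 fold change of 0.71 (SE 0.16, adjusted p = 0.0841 with edgeR), with no overlap. Eef1d had 0.49 (adjusted p = 0.0914) and Eef1g 0.37 (adjusted p = 0.189), while Eef1a1 and Eef2, the elongation factors themselves, had 0.11 and 0.08.

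**Figure D5:**
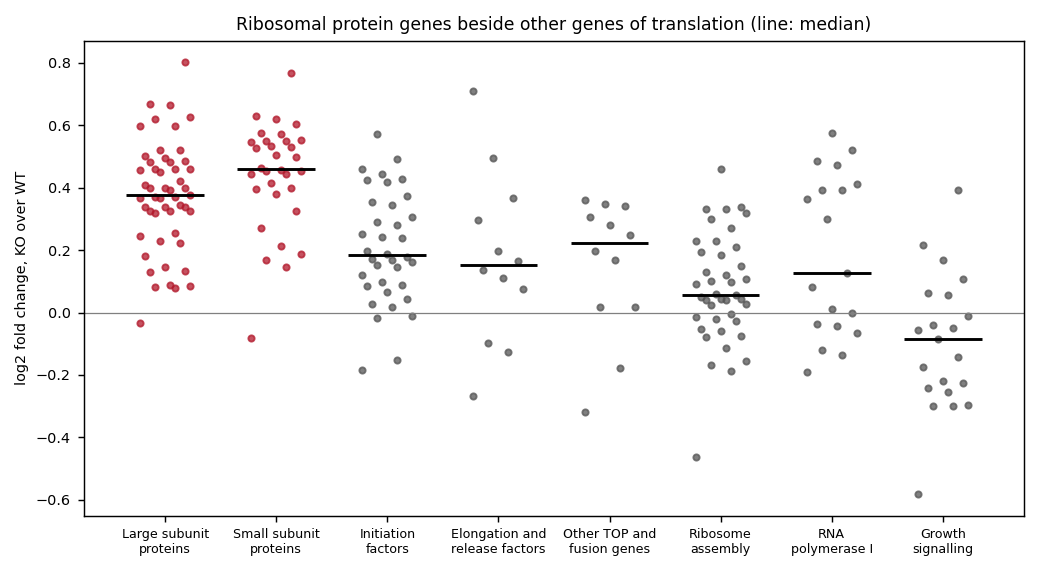
Log2 fold change (KO over WT) of single genes, as points, in the subunits of the ribosome and in 6 other lists of translation genes, with each median as a line. The medians are 0.38 for the large subunit, 0.46 for the small one, 0.18 for initiation, 0.15 for elongation, 0.22 for other TOP and fusion genes, 0.06 for ribosome assembly, 0.13 for RNA polymerase I and -0.08 for signalling.

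Of 12 other genes with TOP messages or fused to a ribosomal protein, 10 were higher in KO bone, with a median log2 fold change of 0.22. Rack1, a scaffold on the small subunit, had 0.35, Npm1, a nucleolar chaperone, had 0.31, and Tpt1 had 0.34. Fau, which encodes a ribosomal protein fused to a ubiquitin-like protein and is not matched by the symbol rule, had 0.36. None of these 4 passed the test.

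Genes that build ribosomes showed smaller values. Of 41 assembly factors tested, 28 were higher in KO bone, with a median log2 fold change of 0.06, and the 3 with the smallest p were Mrto4 (0.46, adjusted p = 0.101 with edgeR), Ltv1 (0.33) and Mdn1 (-0.46). Of 19 genes of the RNA polymerase I machinery, 12 were higher, with a median of 0.13. Of these, 9 had an unadjusted edgeR p below 0.05, against a background of 9.59% of all genes higher at that threshold. Polr1d, a subunit shared by RNA polymerases I and III, had 97.3, 73.1, 78.7 and 77.3 CPM in KO bone, against 52.6, 59.7, 59.8 and 55.6 CPM in WT bone. Its groups did not overlap, and the log2 fold change was 0.52 (SE 0.12, adjusted p = 0.0853 with edgeR). Polr2f and Polr2e, subunits shared by all 3 polymerases, had 0.49 and 0.36.

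Of 21 signalling genes that act on ribosome synthesis, 15 had a lower fitted level in KO bone, with a median log2 fold change of -0.08, and none of these had an unadjusted p below 0.05. Their median exon length was 5687 bases, and with the length and GC offset their median log2 fold change was 0.01. The list was not split by whether a gene promotes or restrains ribosome synthesis, so its median gives no direction of signalling. Rheb, the small GTPase that activates mTOR, had 101, 99.6, 106 and 100.4 CPM in KO bone, against 80.9, 78.0, 84.7 and 66.9 CPM in WT bone. The groups did not overlap, with a log2 fold change of 0.39 (adjusted p = 0.119 with edgeR). Mtor itself had 24.3, 32.2, 28.8 and 39.0 CPM in KO bone, against 46.7, 38.5, 37.7 and 29.8 CPM in WT bone, with overlapping groups and a log2 fold change of -0.30 (adjusted p = 0.398).

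Other tests of the same counts called some of the members, all of them higher in KO bone. DESeq2 called 18 of the 83, or 21.7%, against a background of 3.9% of genes called higher. These were 8 large subunit genes, among them Rpl26, Rpl5, Rpl7 and Rpl37a, and 10 small subunit genes, among them Rps20, Rps13 and Rps3. Limma-voom with sample weights called 17, or 20.5%, against a background of 2.41%. Rpl22l1, Rpl26, Rpl37a, Rps13, Rps20, Rps23, Rps3 and Rps3a1 were the 8 members called by DESeq2, by limma-voom and by edgeR without both replicates 4. These fits use the same mice, and the last leaves out the WT library with the highest median level of the members. With genotype as the only term, edgeR called none of these 8 members over all 8 libraries. The fits with the muscle, the marrow or the surrogate covariate called all 8 of them.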

How the data were processed

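Bulk RNA-seq libraries came from 8 mice, 4 KO and 4 WT, grouped by the sample titles. The authors deposited whole-number counts per Ensembl gene, with bcl2fastq 2.17, STAR 2.5.2b, featureCounts and Subread 1.5.2 and build mm10 named per the submitters' processing notes. No label or header states the strand setting or the treatment of multimapping reads, so reads shared with ribosomal protein pseudogenes or near-identical paralogs cannot be assigned with certainty. The 281 pseudogene rows with such names took counts equal to 0.311% to 0.360% of the members' counts.

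GENCODE M21 gave symbols, coordinates and merged exon lengths, which can exceed message length and were also used for levels per kilobase. Genes were tested with edgeR 4.0.16 (R 4.3.3; TMM, filterByExpr, robust quasi-likelihood, group only) over all 17450 genes passing the filter, with Benjamini-Hochberg adjustment and a threshold of 0.05. The test was checked on simulated data. Levels are CPM after TMM scaling, and 82 of the 83 tested members had over 1000 counts in every library, so counting error is small beside the spread between mice. Paralog ratios used a prior count of 0.5 and exact permutation over 70 arrangements. Alternatives used DESeq2 1.42.0, limma 3.58.1 and sva 3.50.0, other scalings and filters, covariates, length and GC offsets (loess span 0.3) and left-out libraries. No library repeated another (chi-square per degree of freedom at least 32.4 over 28 pairs).

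Members, lists and tests were chosen with earlier results of these data known. Members were named if they belong to a paralog pair, have 1 of the 5 smallest p-values or 3 highest levels per length in a subunit, have a negative fold change, form the stalk, are Rpsa, or stand in the skeletal and blood list. Some genes that this rule names are not reported here. Other lists contributed up to 3 genes by p, and any further genes were picked for their function or after their values were seen.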

Additional observations from a re-analysis of the deposited data

Results flagged for a closer look

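The CPM of 38 named members, 6 paralog ratios and 3 values over all members (their share, the ratio of the subunits and the median level) were compared within each group of 4 with Dixon's criterion. Of 94 groups tested, 11 held 1 library far from the other 3, where chance gives about 1 in 20 groups, or 4.7. In 10 of them the library was KO replicate 1, which was high. Its levels were 498 CPM for Rpl11, 316 for Rpl36, 228 for Rpl36a, 436 for Rpl37a, 197 for Rpl38, 603 for Rpl7, 953 for Rplp1, 603 for Rplp2, 628 for Rps15 and 1006 for Rpsa. For Rplp1 the other 3 KO libraries lay between 580 and 622 CPM. In the remaining one WT replicate 1 was low for Rpl24, at 63.8 CPM where the other WT libraries lay between 81.3 and 83.1 CPM. KO replicate 1 was also the highest library for 76 of the 83 members, so these values are not independent of each other.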

How the results depend on the processing

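No member was called by edgeR with DESeq2 size factors, library totals, factors computed without the members, no or a stricter low-count filter, length or length and GC offsets, the replicate block, any 1 library left out, or both replicates 1 left out, settings that called 0.00571% to 0.228% of all genes. DESeq2 called 18 members, limma-voom 17, the muscle covariate 52, the marrow covariate 37, 1 surrogate variable 27, and leaving out both replicates 4 called 13. In the same order, the shares of all genes called higher were 3.9, 2.41, 4.67, 4.44, 4.04 and 1.61%. A threshold of 0.10 in the main fit called 2 members, against 2.83% of all genes in either direction. The cause of these differences was not tested. The members' median log2 fold change stayed above 0 under each of these settings, at 0.31 with library totals (which move the median of all genes to -0.11) and 0.29 to 0.50 with 1 library left out, lowest without KO replicate 1 and highest without WT replicate 4. With library totals, an unadjusted edgeR p below 0.05 and a higher level were found for 7 of the 83 members, or 8.43%. Among all 17450 genes, 841 met the same threshold with library totals. The subunit difference was -0.12 to -0.07 with 1 library left out.

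The labels do not say whether the replicate numbers pair the mice. Correlations of deviations between mice of the same number were -0.19, -0.17, -0.25 and -0.57 for numbers 1 to 4. With 4 mice per group these values cannot settle whether mice of 1 number shared a litter or a preparation. With the replicate block the median was 0.41, 0 members were called, and 9 had an unadjusted p below 0.05, against 46 without it. In the block fit 882 of all 17450 genes were higher at that threshold.

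Paralog differences changed sign for Rpl3l to Rpl3 (-0.34 without both replicates 4, -0.12 to 0.36 with 1 library left out) and Rps27l to Rps27 (0.0782 without both replicates 1, -0.13 to 0.0417). Single members changed sign as follows, and none was called under those settings. Rpl13a was 0.12 with the muscle covariate, 0.0085 with the marrow covariate, 0.080 without both replicates 4 and -0.15 to 0.13 with 1 library left out. Rpl39l was -0.0448 with limma-voom, -0.0510 with the block, -0.0631 with the length offset, -0.0434 with length and GC, -0.57 without both replicates 1, and -0.40 to 0.33. Rpl7l1 was -0.0181 with library totals, -0.0176 without both replicates 1, and -0.0178 to 0.14. Without both replicates 1, Rpl29 was -0.0433, Rpl3 -0.00294 and Rps19 -0.19 (-0.0696 to 0.31 with 1 library left out). Rpl27 was -0.00202 with limma-voom, -0.0423 with library totals, -0.0438 with the length offset, -0.0319 with length and GC, -0.19 without both replicates 1, and -0.0827 to 0.22 with 1 library left out. Rpl31 was -0.0286, -0.0527, -0.0373, -0.0294 and -0.20 under the same settings, and -0.0765 to 0.23. In all, 14 of the 83 members were lower without both replicates 1.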
